A study of Rattus norvegicus with 29 samples.

Results

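The transcripts described here were raised by acetaminophen after 24 h in primary rat renal proximal tubule epithelial cells, while their levels stayed close to control with gentamicin, TCDD and trichloroethylene. They number 99 of the 28420 transcripts in the deposited tables. They were chosen by measured TPM, a level scaled to transcript length and to the same total in every library. The mean over the 5 control libraries had to lie between 1 and 500 TPM. The measure L is the log2 ratio of group means after adding 1 TPM to each. L at 24 h against control had to be at least 1.3 for acetaminophen and no larger than 0.5 in size for each of the other compounds. A limit of 150 members was not reached.

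Proximal tubule cells take up and metabolise drugs and solutes from the filtrate. Acetaminophen, an analgesic, is largely cleared as glucuronide and sulfate conjugates. A smaller part is oxidised to a reactive quinone imine that is trapped by glutathione, and overdose can injure this tubule segment. Gentamicin, an aminoglycoside antibiotic, is taken up into the same cells by endocytosis and accumulates in lysosomes. TCDD is a dioxin that activates the aryl hydrocarbon receptor, and trichloroethylene is a solvent that the kidney metabolises by way of a glutathione conjugate.

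The 29 libraries form 10 groups: control, acetaminophen, gentamicin, TCDD (2,3,7,8-tetrachlorodibenzodioxin in the labels) and trichloroethylene, each at 6 h and at 24 h. Each group has 3 libraries, except control at 6 h, which has 2, its replicates 2 and 3. The sources used here give no strain, age, dose or vehicle. The libraries hold between 8243698 and 11446612 estimated counts. Nothing in the labels ties the replicates to separate animals or cultures, and the spread behind each p-value is that between libraries, which may be technical. The files do not pair transcript identifiers with gene names, so members are described by level, length and response, 4 of them by identifier, and the labelled cell type was not checked against marker genes. These are bulk levels: more RNA of a transcript per cell and more cells that hold it cannot be told apart.

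The requirement of near-control levels with the other compounds removed most candidates. Of 13730 transcripts in the control range, 990 had L of at least 1.3 with acetaminophen. Of these, 598 were past 0.5 in size with gentamicin, 613 with TCDD and 555 with trichloroethylene, and 258 were past it with all 3. Most of those past it with a given compound lay upward: 419 were above 0.5 with gentamicin, 430 with TCDD and 535 with trichloroethylene. Below -0.5 lay 179, 183 and 20 with these compounds. The 99 members are those past 0.5 with none of them, and the other 891 of the 990 are set beside them at the end. The member nearest the acetaminophen threshold had L of 1.302, and the nearest transcript outside it had 1.298. The nearest values on either side of the 0.5 limit were 0.499 and 0.503.

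The members rest on the TPM scale. At 24 h the median L of all 15990 transcripts kept for testing was 0.12 for acetaminophen and 0.03 for trichloroethylene, but -0.15 for gentamicin and -0.27 for TCDD. On CPM scaled with TMM factors, which set the bulk of transcripts near 0, those medians were between -0.04 and 0.02. On that scale 41 of the 99 members met the L thresholds, while 38 lay above 0.5 with TCDD, 13 with gentamicin and 1 with trichloroethylene. None lay below -0.5 with any of these compounds. The acetaminophen threshold itself was met by 82 members, and the other 17 fell short of it, with L down to 1.09. With 0.1 in place of 1 TPM added to each mean, 60 of the 99 met every threshold. The added 1 TPM hides differences among low levels. Fragment length also differed between the 24 h groups, at 269.9 to 288.8 bases in control, 232.7 to 274.7 with acetaminophen, 259.2 to 264.5 with gentamicin, 230.3 to 238.1 with TCDD and 248.3 to 259 with trichloroethylene. Its part in the selection was not tested.

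Before treatment effects, the members were of modest abundance. Their control mean ran from 1.15 to 176.1 TPM with a median of 7.28, beside a median of 13.5 TPM over all transcripts tested. Of the 99, 38 lay under 5 TPM, 43 between 5 and 20 TPM, and 18 at 20 TPM or more. Their lengths ran from 258 to 10465 bases. The median length was 1845 bases, beside 2019 over all tested transcripts, and 15.2% of members were under 1000 bases beside 15.7% of all. In 34 members (34.3%) an estimated count in some library was further than 1e-06 from a whole number, so reads were shared with another transcript there, against 40.4% of all tested transcripts. Changes of those 34 could include a shift of reads between transcripts.

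At 24 h, where the members were chosen, L with acetaminophen ran from 1.3 to 3.3 with a median of 1.6, a 3.04-fold ratio on the scale with 1 TPM added. It was under 1.5 for 35 members, between 1.5 and 2 for 41, between 2 and 2.5 for 15, and above that for 8. All 3 acetaminophen libraries lay above all 12 other libraries of 24 h in each of the 99 members, as they did in 18.5% of all tested transcripts. In 57 members the lowest acetaminophen library was more than 2 times the highest other library, a count not made over all tested transcripts. These counts follow from the selection. With the other compounds the members' L was spread over the permitted range: the median was -0.02 with gentamicin, 0.04 with TCDD and 0.21 with trichloroethylene. The trichloroethylene values leaned upward, with 77 of 99 above 0, compared with 45 for gentamicin and 52 for TCDD. All 4 compounds share the same 3 controls, which were themselves used in the selection.

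**Figure D1:**
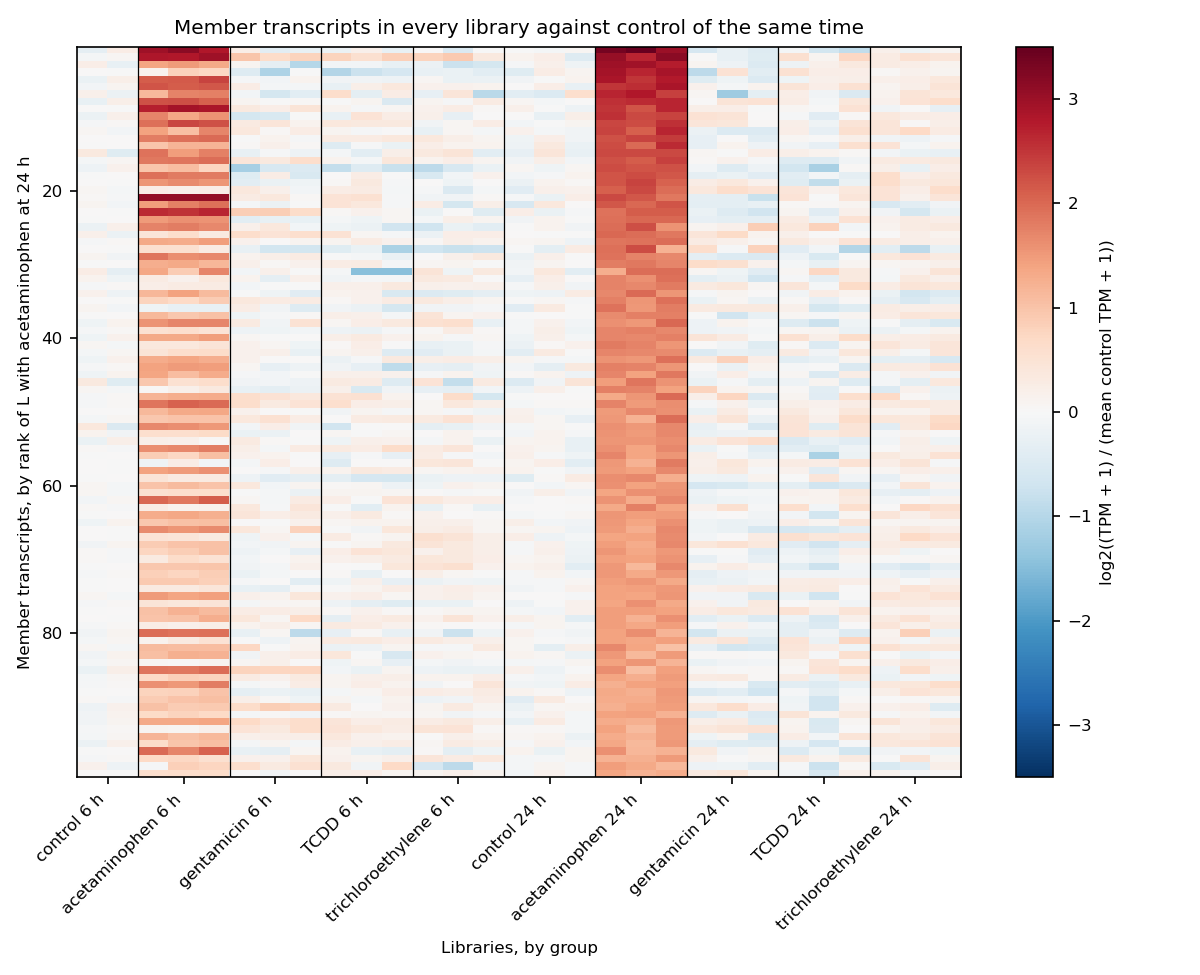
Each row is 1 of the 99 members, ordered by L with acetaminophen at 24 h, and each column is 1 of the 29 libraries, grouped by compound and time. Colour gives the log2 ratio of (TPM + 1) to the mean control of the same time plus 1: both acetaminophen blocks are red, evenly so at 24 h where the members were chosen and unevenly at 6 h, and the other blocks are pale.

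The summed level gives the weight of the members in the transcriptome. In the 6 h controls they added up to 2084 and 2182 TPM, or 2133 ± 69.2 TPM (SD, n = 2). With acetaminophen at 6 h the sums were 4464, 4477 and 4560 TPM, or 4500 ± 52.6 TPM (SD, n = 3), all above both controls. Gentamicin gave 2155, 2122 and 2103 TPM at that time. TCDD libraries summed to 2097, 2144 and 1924 TPM and trichloroethylene libraries to 2059, 2055 and 2062 TPM. All 9 libraries of these compounds lay within the control range or below it.

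By 24 h the controls stood at 1677, 1723 and 1772 TPM, below the 6 h controls. The acetaminophen sums had reached 5515, 5572 and 5264 TPM. The other compounds summed to between 1772 and 1946 TPM, against 1924 to 2155 TPM at 6 h, and for each compound every 24 h library lay below every 6 h library. The 24 h controls entered the selection, so their fall is a description: 65 of 99 members had a lower control mean at 24 h than at 6 h, with a median L between the times of -0.16 beside 0.13 over all tested transcripts.

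**Figure D2:**
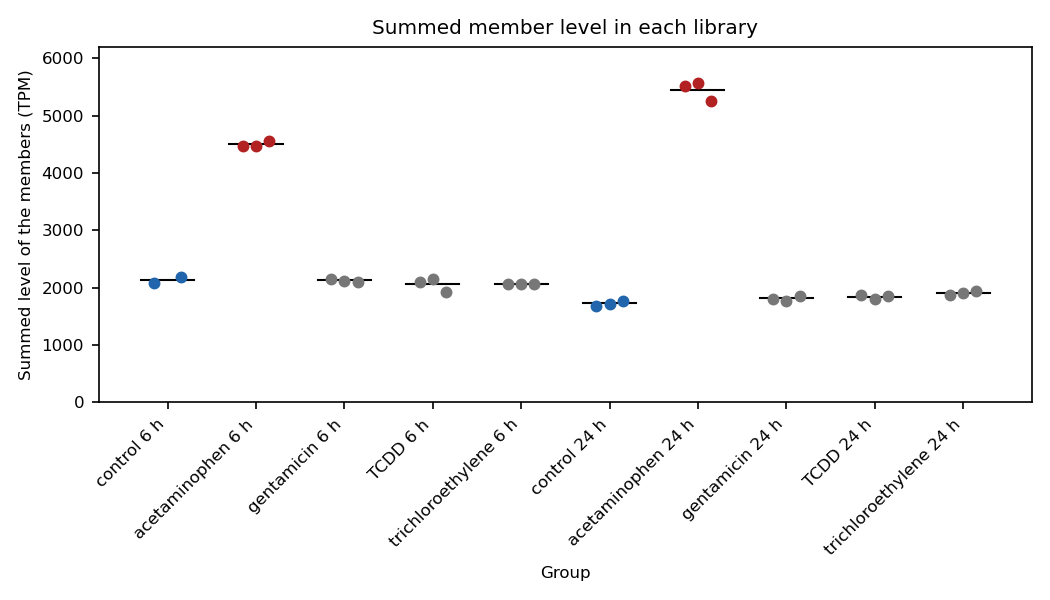
Points are the summed TPM of the 99 members in each library, and bars are group means (n = 3, control at 6 h n = 2); the axis starts at 0. The acetaminophen libraries lie between 4464 and 5572 TPM and all other libraries between 1677 and 2182 TPM.

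Whether the members had already moved at 6 h is a question that the 24 h selection leaves free, since no treated 6 h library entered it. The 6 h controls entered only through the range of 1 to 500 TPM. All 99 members passed the low-count filter, 98 of them also on the libraries without acetaminophen. In edgeR's quasi-likelihood test with Benjamini-Hochberg adjustment over all 15990 transcripts, 85 of the 99 members rose with acetaminophen at 6 h and 0 fell. The background shares were 24.2% of all tested transcripts higher and 24.5% lower. The members' median log2 change was 1.34, or 2.53-fold, with a range from -0.28 to 3.67, beside a median of 0 over all transcripts. Of the 85 that rose, 64 rose more than 2-fold and 24 more than 4-fold. These fold counts were not made over all tested transcripts.

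In single libraries the separation was similar. All 3 acetaminophen libraries lay above both controls in 93 members (32.5% of all tested transcripts), and above all 11 other libraries of 6 h in 83 members (17.6% of all). The acetaminophen libraries at 6 h had shorter fragments than the controls, at 246.6 to 251.6 bases against 257.1 to 263.2. When fragment length entered the fit, an alternative added after seeing the data, 81 members rose and 0 fell. In that fit 25.3% of all transcripts were higher and 25.5% lower. With any 1 library of acetaminophen or control at 6 h left out, the members' median log2 change was between 1.28 and 1.35.

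The transcript with the highest L at 24 h, ENSRNOT00000025705, is 1365 bases long and had few counts outside acetaminophen. In the 6 h controls it stood at 1.36 and 2.47 TPM. The acetaminophen libraries of that time held 21.8, 24.8 and 19.5 TPM. Every one of them was several times either control, and the fitted log2 change was 3.57 ± 0.43 (SE, adjusted p = 1.5e-07 in edgeR). With gentamicin at 6 h it was at 2.42, 1.24 and 1.42 TPM, with TCDD at 1.52, 2.27 and 1.43 TPM, and with trichloroethylene at 1.92, 1.04 and 1.87 TPM. These 9 libraries overlapped the controls or lay just below them. Acetaminophen exceeded each of them directly, with log2 differences of 3.88 ± 0.37 against gentamicin (adjusted p = 2.8e-09), 3.84 ± 0.37 against TCDD (3.5e-09) and 3.97 ± 0.38 against trichloroethylene (2.5e-09).

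At 24 h ENSRNOT00000025705 remained high with acetaminophen, at 17.7, 19.3 and 13.6 TPM. Controls of that time were at 0.813, 0.736 and 0.906 TPM, all below those of 6 h. Gentamicin libraries held 0.218, 0.507 and 0.325 TPM and TCDD libraries 0.739, 0.169 and 0 TPM. Both compounds therefore sat below all controls or, for 1 TCDD library, at their lower edge, although L was only -0.43 and -0.48. The gap rests on few reads, with between 0 and 8 estimated counts in each of these libraries. Trichloroethylene libraries held 1.07, 0.64 and 0.91 TPM, across the control range.

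The member next in L at 24 h, of 3087 bases, was not flat with the other compounds at 6 h. It held 1.38 and 1.62 TPM in control and 16.8, 16.3 and 18.4 TPM with acetaminophen, 11.7-fold higher. Gentamicin gave 3.89, 2.89 and 3.31 TPM, a rise of 1.04 ± 0.23 on the log2 scale (SE, edgeR adjusted p = 0.0034). TCDD gave 3.29, 2.71 and 3.42 TPM and trichloroethylene 3.27, 3.74 and 2.14 TPM. All 9 of these libraries lay above both controls, although the changes with TCDD (0.91 ± 0.23, adjusted p = 0.7) and trichloroethylene (0.89 ± 0.23, 0.36) did not pass. Acetaminophen exceeded each of them by log2 differences of 2.52 to 2.66. At 24 h the controls were at 3.4, 3.72 and 1.93 TPM, the level of the other compounds at 6 h, and acetaminophen at 32.5, 24.7 and 34.7 TPM.

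A member of 1379 bases, the next after it, had a lower control level at 24 h than at 6 h. The controls held 4.14 and 2.64 TPM at 6 h but 0.802, 1.09 and 0.671 TPM at 24 h. With acetaminophen it was at 10.4, 11.4 and 10.1 TPM at 6 h and 13.5, 13.3 and 11.5 TPM at 24 h, similar at both times. Its 6 h log2 change was 1.71 ± 0.35 (SE, edgeR adjusted p = 0.00023), 3.27-fold.

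The member with the smallest p at 6 h was ENSRNOT00000023419, a longer transcript of 4405 bases. Controls held 1.99 and 1.97 TPM, and acetaminophen libraries 18.6, 21.5 and 20.4 TPM. The groups did not overlap, and the change was 10.5-fold, 3.4 ± 0.15 on the log2 scale (SE, edgeR adjusted p = 8.8e-15). With gentamicin at 6 h it held 2.79, 2.5 and 3.09 TPM, all above both controls, a log2 change of 0.37 ± 0.16 that did not pass (adjusted p = 0.13). TCDD libraries held 2.25, 1.92 and 2.15 TPM and trichloroethylene libraries 2.3, 2.56 and 2.05 TPM. Their log2 changes were -0.06 ± 0.16 (adjusted p = 0.95) and 0.1 ± 0.16 (0.8).

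At 24 h the acetaminophen libraries held 17.3, 14 and 19.7 TPM of ENSRNOT00000023419 beside 2.66, 2.23 and 1.86 TPM in controls, close to its levels at 6 h. The other compounds at 24 h gave 2.72, 2.79 and 2.19 TPM with gentamicin, 2.41, 2.2 and 3.58 TPM with TCDD, and 1.98, 2.28 and 1.67 TPM with trichloroethylene. Apart from TCDD replicate 3, these lay close to the control range.

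The members differed in how far they had moved by 6 h. L at 6 h had already reached 1.3 in 40 members, all of them called higher. Another 39 had L between 0.5 and 1.3, of which 36 rose. The remaining 20 had L under 0.5, and 9 of them rose. The early members were the less abundant ones: their median control mean was 3.03 TPM, against 11.4 and 10.2 TPM in the other two sets. Among the 40 early members the median level was 2.99 TPM in control and 20.3 TPM with acetaminophen at 6 h, and 3.23 and 20.9 TPM at 24 h. For the 20 late members the medians were 11.9 and 13.8 TPM at 6 h, then 9.2 and 29.6 TPM at 24 h. These sets were formed on 6 h values, so their 6 h levels are a description. The rule, with 1 TPM added in L, also demanded a larger fold change at 24 h of the less abundant members.

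Over all members, L at 6 h had a median of 1.12, and the median of its ratio to L at 24 h was 0.681. L at 6 h was under 0.5 of that at 24 h in 33 members. In 12 members it was at least as large at 6 h, all of them called higher then. Their median level with acetaminophen was 20.3 TPM at 6 h and 14.3 TPM at 24 h, beside 2.28 and 2.32 TPM in control. Across the 99 members, which are not independent replicates and share a lower limit at 24 h, L at 6 h and 24 h correlated at r = 0.53 (Spearman's rho 0.41). The 2 times have separate controls.

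Single members showed how far the timing differed. The largest 6 h change belonged to a transcript of 1807 bases that stood at 1.95 and 1.83 TPM in control and at 23.2, 23.2 and 23.3 TPM with acetaminophen. It changed by 3.67 ± 0.27 on the log2 scale (SE, edgeR adjusted p = 4.5e-11). At 24 h it stood at 12, 10.8 and 8.44 TPM, lower than at 6 h and still above the controls at 1.54, 1.22 and 2.1 TPM. The opposite timing was seen in a transcript of 1016 bases. With acetaminophen it stood at 2.01, 3.87 and 3.65 TPM at 6 h beside 1.84 and 1.74 TPM in control, a log2 change of 0.88 ± 0.58 that did not pass (adjusted p = 0.22). Directly, it was higher at 6 h with acetaminophen than with gentamicin (1.76 ± 0.55, edgeR adjusted p = 0.0082), TCDD (2.52 ± 0.59, 0.0008) and trichloroethylene (1.49 ± 0.54, 0.021). At 24 h it reached 13.2, 11 and 12.9 TPM beside 0.401, 1.26 and 0.997 TPM.

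**Figure D3:**
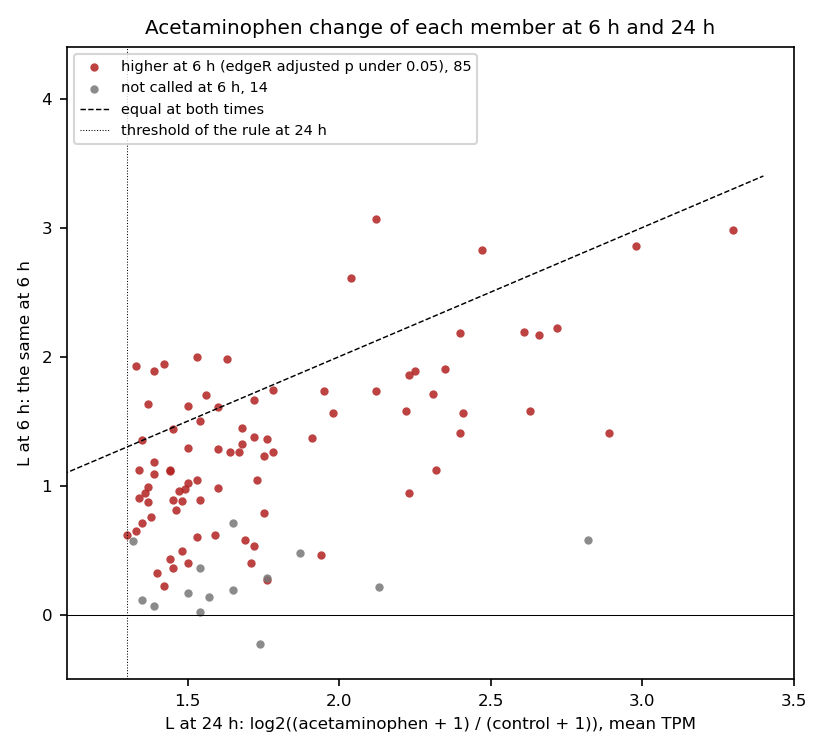
Each point is 1 of the 99 members, with L for acetaminophen at 24 h on the horizontal axis (where members were chosen, dotted line at 1.3) and at 6 h on the vertical axis; red points rose at 6 h and grey points did not pass. On or above the dashed line of equal change lie 12 members, and 20 lie under 0.5 at 6 h.

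With acetaminophen at 6 h, 21.2% of all tested transcripts between 20 and 500 TPM in control rose. The share above 100 TPM alone was not counted. Among the 6 members with a control mean above 100 TPM, 4 rose at 6 h. The other two, at 107.9 and 111.8 TPM, did not pass (edgeR adjusted p = 0.2 and 0.52). The highest level with acetaminophen at 24 h was that of a transcript of 683 bases, which also had the highest control mean. It went from 189.8 and 191.7 TPM in the 6 h controls to 358.9, 360.6 and 341.3 TPM with acetaminophen at 6 h, a change of 0.97 ± 0.17 on the log2 scale (SE, adjusted p = 3.3e-05 in edgeR). At 24 h it stood at 462.7, 489.4 and 421.1 TPM beside 161.9, 162.2 and 175 TPM in control. The highest 6 h level was that of the shortest member, whose 258 bases are near the length of the sequenced fragments, so its level is less certain. It held 142.4 and 143.3 TPM in control and 570.1, 469.6 and 605.1 TPM with acetaminophen at 6 h, a log2 change of 2.06 ± 0.23 (adjusted p = 3.8e-08). At 24 h it stood at 386.3, 286.2 and 299.3 TPM, above controls at 139.6, 108.1 and 136.1 TPM.

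The longest member, of 10465 bases, was among the late ones. It held 4.25 and 4.76 TPM in the 6 h controls and 5.05, 5.79 and 6.79 TPM with acetaminophen, a log2 change of 0.43 ± 0.18 that just passed (edgeR adjusted p = 0.049). TCDD at 6 h gave 5.8, 5.94 and 5.47 TPM and trichloroethylene 5.86, 5.29 and 5.18 TPM, also above both controls. Directly, acetaminophen was higher than gentamicin (0.58 ± 0.16, adjusted p = 0.0031). Its differences from TCDD (0.22 ± 0.16, adjusted p = 0.25) and trichloroethylene (0.27 ± 0.16, 0.14) did not pass. At 24 h acetaminophen gave 16.9, 16 and 17.2 TPM beside 6.05, 5.61 and 5.48 TPM in control. Its 24 h levels varied with the other compounds, from 3.94 to 7.96 TPM with gentamicin and from 4.83 to 10.3 TPM with TCDD.

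The member with the lowest mean over the 5 controls, at 1.15 TPM, was 9596 bases long and held 0.812 and 1.38 TPM in the 6 h controls. Acetaminophen gave 5.89, 4.38 and 5.27 TPM at 6 h, a rise of 2.29 ± 0.36 on the log2 scale (SE, edgeR adjusted p = 1.1e-05), and 11.8, 9.87 and 10.3 TPM at 24 h. Gentamicin at 6 h gave 0.371, 0.452 and 1.09 TPM, a change of -0.89 ± 0.39 that did not pass (adjusted p = 0.15).

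The share of members that rose at 6 h was high at every abundance. Among members under 5 TPM in control, 30 of 38 rose, with a median log2 change of 2.06 and a median SE of 0.275. Between 5 and 20 TPM, 40 of 43 rose, with a median of 1.21 and an SE of 0.142. At 20 TPM or more, 15 of 18 rose, with a median of 0.73 and an SE of 0.163. Over all tested transcripts in the same ranges, 23%, 32.5% and 21.2% rose. Because L adds 1 TPM to each mean, less abundant transcripts needed a larger fold change at 24 h to be chosen. The fall of the members' medians with abundance can therefore follow from the selection.

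The 14 members that did not pass at 6 h had log2 changes from -0.28 to 0.91 and adjusted p from 0.1 to 0.81 (edgeR). In 13 of them the fitted change was above 0, and in 8 all 3 acetaminophen libraries lay above both controls. Their control mean was lower, with a median of 3.7 TPM against 8.17 TPM for those that rose, and their median SE was larger, at 0.243 against 0.173. Their L at 24 h was similar, at a median of 1.61 against 1.6. The 1 member with a fitted change below 0 was a transcript of 954 bases. It held 1.94 and 1.6 TPM in control and 1.5, 1.3 and 1.31 TPM with acetaminophen at 6 h (log2 change -0.28 ± 0.43, adjusted p = 0.62). At 24 h it reached 7.68, 5.67 and 7.05 TPM beside 0.774, 1.91 and 1.3 TPM.

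With the other compounds the 6 h libraries are also free of the selection, which bounded only their 24 h values. Gentamicin raised 6 members and lowered 2 at 6 h (edgeR adjusted p under 0.05). That is 6.06% and 2.02% of the members, while 8.34% of all tested transcripts were higher and 4.88% lower. The members' median log2 change was -0.07, with a range from -0.94 to 1.05. The counts depended on the controls: without control replicate 2, 1 member passed, and without control replicate 3, 3 members did. Over all transcripts these fits called 3.64% higher and 1.71% lower, and 4.06% higher and 1.89% lower. With fragment length in the fit, 14 members passed, 9 higher (9.09%) and 5 lower (5.05%), where 11.5% of all transcripts were higher and 8.19% lower. Gentamicin fragments at 6 h were 247.7 to 261.2 bases. On log2(TPM + 1), 7 were higher (7.07%) and 0 lower, where 8.45% of all transcripts were higher and 2.03% lower.

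All 6 members raised by gentamicin also rose with acetaminophen at 6 h, by log2 changes of 1.45 to 3.55 against 0.5 to 1.05 with gentamicin. In 5 of them acetaminophen was higher than gentamicin in the direct test. The exception was a transcript of 3468 bases. It stood at 0.989 and 1.49 TPM in control, 2.47, 3.06 and 2.87 TPM with gentamicin and 3.52, 3.14 and 3.19 TPM with acetaminophen. Its direct log2 difference of 0.4 ± 0.23 did not pass (adjusted p = 0.15). The 2 comparisons share their controls.

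The 2 members lowered by gentamicin, named after their values were seen, were ENSRNOT00000023659 (2614 bases) and ENSRNOT00000014625 (1845 bases). ENSRNOT00000023659 held 7.94 and 8.2 TPM in control and 5.99, 6.52 and 6.56 TPM with gentamicin at 6 h. All treated libraries lay below both controls, by a fitted change of -0.46 ± 0.12 on the log2 scale (SE, adjusted p = 0.0098 in edgeR). With acetaminophen it held 24.6, 26.5 and 26.2 TPM, far above, with a log2 change of 1.73 ± 0.12 (adjusted p = 7.9e-12). ENSRNOT00000014625 held 17.8 and 18.1 TPM in control and 14.2, 15.5 and 14.9 TPM with gentamicin (log2 change -0.39 ± 0.1, adjusted p = 0.01). It rose to 31.7, 32.2 and 36.7 TPM with acetaminophen (0.96 ± 0.1, adjusted p = 1.5e-08). Neither gentamicin call held without control replicate 2 (adjusted p = 0.07 and 0.081) or replicate 3 (0.086 and 0.079), nor with limma on log2(TPM + 1) (0.18 and 0.21).

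At 24 h, used in the selection, ENSRNOT00000023659 stood at 22.3, 23.5 and 23.5 TPM with acetaminophen and at 4.58, 5.71 and 5.08 TPM in control. Gentamicin gave 3.98, 3.86 and 3.96 TPM, again below every control. The corresponding values of ENSRNOT00000014625 were 37.1, 35.1 and 41.9 TPM with acetaminophen, 15.4, 14.6 and 12.3 TPM in control, and 9.86, 10.8 and 8.37 TPM with gentamicin. Both transcripts thus lay lower with gentamicin at both times while high with acetaminophen.

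**Figure D4:**
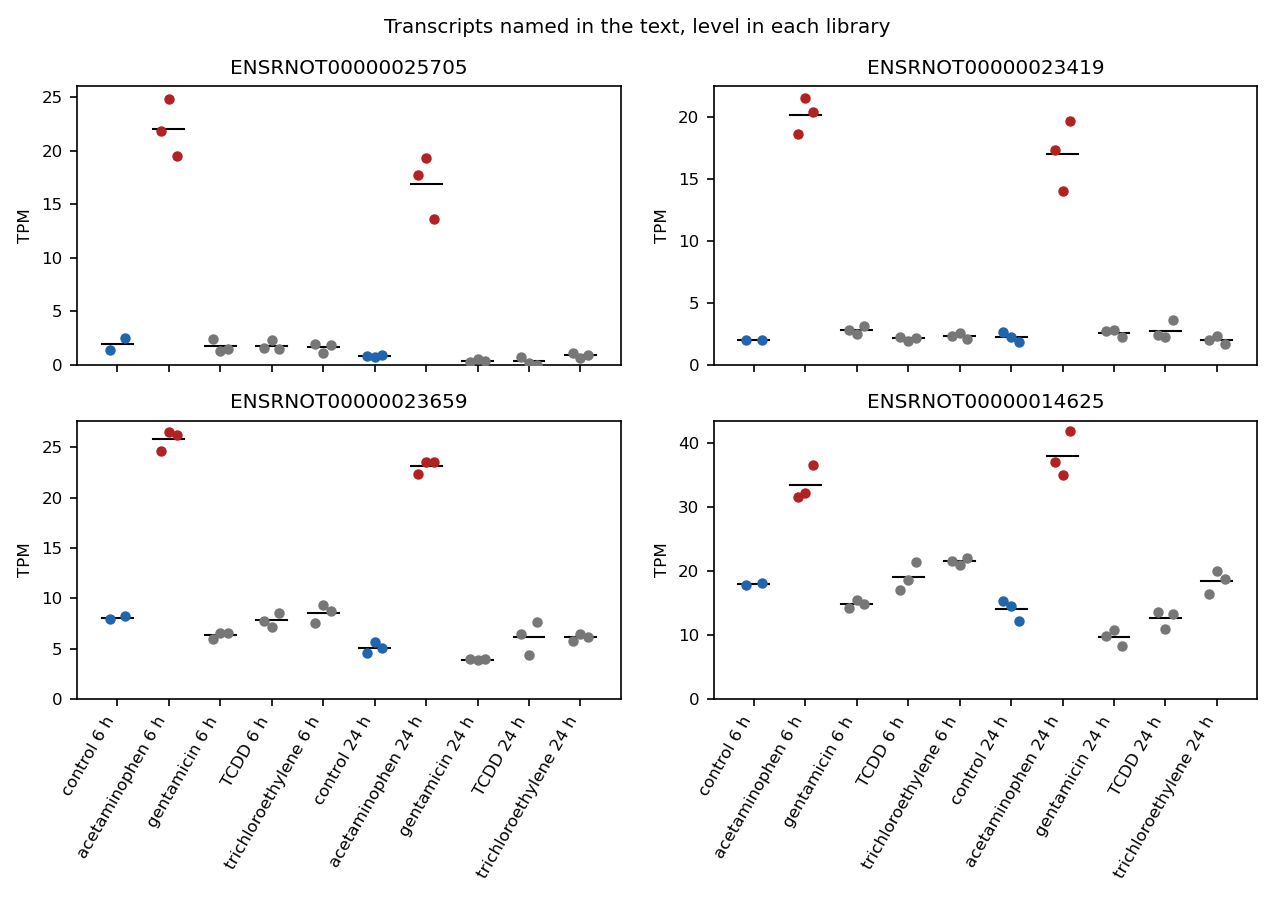
Points are the TPM of each library for the 4 transcripts named by identifier, by group, with bars at the group means (n = 3, control at 6 h n = 2); each axis starts at 0. Acetaminophen libraries of both times stand above all others in each panel, and the lower panels show the lower gentamicin levels of ENSRNOT00000023659 and ENSRNOT00000014625.

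TCDD and trichloroethylene changed 0 members at 6 h in edgeR, as they changed 0% of all tested transcripts in either direction. At an unadjusted p under 0.05, 8 members (8.08%) stood out for TCDD and 9 (9.09%) for trichloroethylene, beside 7.03% and 12.9% of all transcripts. DESeq2 called 0 members for either compound, and only 8 (TCDD) and 24 (trichloroethylene) of all 15990 transcripts. The medians of the members' log2 changes were both -0.03, with 46 and 44 of 99 above 0. A change that misses the threshold is not shown to be absent: the 95% interval of the log2 change lay within 1 in either direction for 83 members with TCDD, 81 with trichloroethylene and 76 with gentamicin. It lay within 0.5 for 42, 42 and 39. The lowest fitted change, -1.71 ± 0.8 with TCDD (adjusted p = 0.7), was that of a transcript of 666 bases listed at 1.7, 0 and 0 TPM beside 2.32 and 1.23 TPM in control. Fitted with the 5 compared libraries alone, trichloroethylene lowered 2 members (2.08%) and raised 0, where 2.17% of all transcripts in that fit were lower and 1.04% higher.

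**Figure D5:**
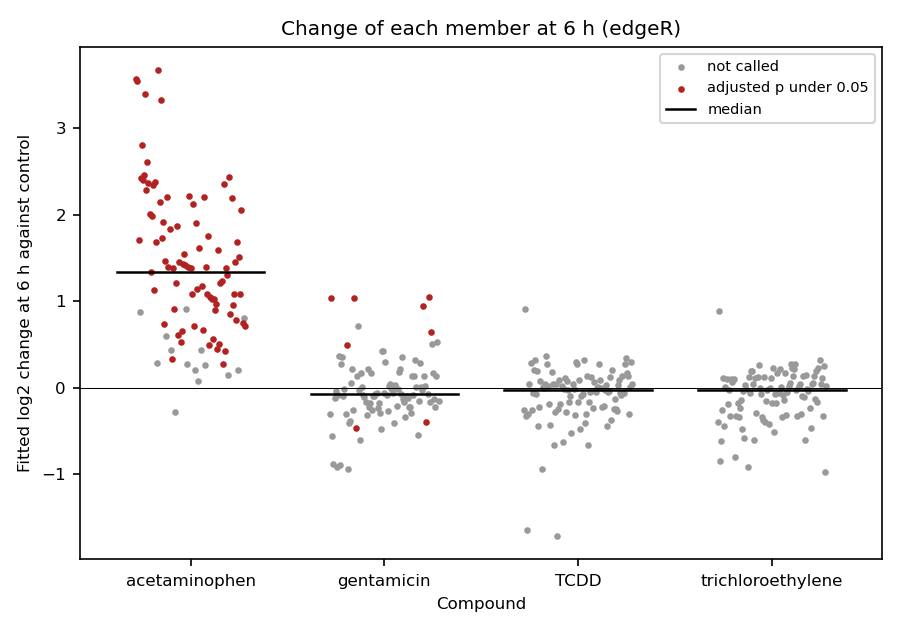
Each point is the fitted log2 change of 1 of the 99 members at 6 h against the 2 controls of that time, red where the edgeR adjusted p is under 0.05, with a bar at the median of each compound. The acetaminophen median is 1.34 and the other 3 medians are -0.07, -0.03 and -0.03.

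Whether acetaminophen differed from each other compound at 6 h was tested directly, in 3 contrasts that involve no control and no 24 h group. Against gentamicin, 89 members were higher with acetaminophen and 0 lower, where 26.1% of all tested transcripts were higher and 28.3% lower. Against TCDD, 88 were higher and 0 lower (27% and 27.9% of all). Against trichloroethylene, 91 were higher and 0 lower (27.8% and 28.5% of all). The members' median log2 differences were 1.34, 1.35 and 1.41. The 3 comparisons share the acetaminophen libraries. In the fit, 80 members were higher than control and than each of the other compounds at once, compared with 17.9% of all tested transcripts. Of the 14 members that did not pass against control, 10 were higher with acetaminophen than with at least 1 other compound and 4 than with all 3.

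The excluded candidates can be set beside the members at 6 h. These are the 891 transcripts with the same acetaminophen threshold and control range at 24 h but past 0.5 with at least 1 other compound, 882 of them tested. With acetaminophen at 6 h, 697 of them (79%) rose and 12 fell, with a median log2 change of 1.32, close to the members' 85.9%, 0 and 1.34. With gentamicin at 6 h, 183 (20.7%) rose and 34 fell, with a median of 0.14 against the members' 6.06% and -0.07. With TCDD and trichloroethylene none of them passed at 6 h in edgeR. Both sets were chosen on 24 h values, and the split between them used gentamicin itself. At 24 h, 598 of the excluded transcripts were past 0.5 with gentamicin, 419 of them upward. A difference between the sets with gentamicin at 6 h can therefore follow from the split. The difference between them was not tested.

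The spread between replicates of the members is given by the median coefficient of variation. At 6 h it was 6.21% with acetaminophen, 6.97% in control (2 libraries), 10.5% with trichloroethylene, 11.1% with gentamicin and 13.1% with TCDD. At 24 h it was 10.1% with trichloroethylene, 10.4% with acetaminophen, 13% in control, 14.1% with gentamicin and 21.2% with TCDD. The median SE of a member's log2 change at 6 h was 0.182 against control, where 2 libraries stand, and 0.159 to 0.161 between compounds.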

How the data were processed

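RNA was sequenced from 29 libraries of rat renal proximal tubule epithelial cells. The submitters' processing notes name kallisto 0.43, a pseudoaligner that divides reads between transcripts. Per the file headers, each deposited table gives estimated counts, which are expected counts and need not be whole, and TPM, scaled by the authors to effective length and library total. The sources used here give no transcript set, build or strand setting.

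The members were chosen from the deposited TPM by the rule stated at the start. The members, tests and lists were chosen with earlier results of these data known. Planned gene lists and marker genes need gene names, so none was used. Before fitting, estimated counts were rounded to whole numbers, filtered with filterByExpr (minimum count 10, 15990 transcripts kept) and scaled with TMM. In R 4.3.3, 1 edgeR 4.0.16 quasi-likelihood model with robust dispersion and a coefficient per group was fitted to all 29 libraries (19 residual degrees of freedom), with Benjamini-Hochberg adjusted p under 0.05 over all transcripts tested. The SE is the log2 change divided by the square root of F, and 95% intervals use 19 degrees of freedom. The steps were tested on simulated counts. Only 6 h comparisons were tested, since 24 h values chose the members. With totals of 8243698 to 11446612 counts, the median SE over all transcripts was 0.158 to 0.176. Chi-square per degree of freedom between replicates was 2.98 to 28.9, so none was counted as a repeat of another.

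Named by rule were the member with the highest L at 24 h and the one with the smallest p at 6 h among those higher. The rule also asked for 2 members lower with acetaminophen at 6 h, and there were 0. The 2 lower with gentamicin, and the members given by length alone, which lie at the extremes of level, length or change, were picked after their values were seen. Alternatives were DESeq2 1.42.0, limma 3.58.1 on log2(TPM + 1) or log2(TPM + 0.1), other scalings and filters, a replicate block, no robust dispersion, only the compared groups and leaving out each library. Fragment length (transcript length minus effective length, the median over transcripts of at least 1000 bases) as a covariate and effective length as an offset were added after the data were seen.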

Additional observations from a re-analysis of the deposited data

How the results depend on the processing

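The count of members raised by acetaminophen at 6 h ran from 77 to 87 over the alternatives other than leaving out a library, with 0 lower in each. The 77 came from the filter at 10 CPM, where fewer members were tested, and were 87.5% of those, beside 28.2% of all transcripts. The 87 came from only the compared groups and were 88.8%, beside 32.9% of all. With 1 acetaminophen library left out, 82 or 83 members rose and 0 fell, beside 22.3% to 22.7% of all transcripts higher. The count was lower without a control library. Without control replicate 2 or replicate 3 at 6 h, 77 members (77.8%) rose and 0 fell, beside 18.9% and 18.8% of all higher. The direct comparisons gave between 81 and 92 members called under every alternative. Over all transcripts, these fits called 17.2% to 35.2% higher and 18.6% to 35% lower. The members called were all higher, except 1 lower than gentamicin with limma on log2(TPM + 1). On that scale, where the median of all transcripts shifted to -0.14 or -0.15 in these comparisons, the members' medians were 1.03, 1.09 and 1.05 against gentamicin, TCDD and trichloroethylene, and acetaminophen against control gave 1.11. Of all transcripts called there, 36.4%, 36.3% and 37% were higher, beside 48%, 49.2% and 49.4% in the edgeR fit. For gentamicin against control these shares were 80.7% and 63.1%.

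The gentamicin count of 8 members was 14 with the fragment length covariate, and with 1 library left out it ran from 1 to 8. The trichloroethylene count of 0 became 2 with only the compared groups, and the TCDD count was 0 under each alternative. Of the members, 60 met the rule with a pseudocount of 0.1, 41 on TMM-scaled CPM, and 76 to 99 with 1 library left out.

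The replicate block gave 84 members higher with acetaminophen than control, beside 23.7% of all transcripts. With gentamicin it called 7 members, 5 higher (5.05%) and 2 lower (2.02%), where 7.75% of all transcripts were higher and 4.53% lower. The direct comparisons gave 88, 88 and 91 members higher, beside 25.8%, 26.7% and 27.5% of all. The replicate numbers were not taken as pairs, since deviations of same-numbered libraries correlated between -0.085 and 0.082. Members under 5 TPM were measured least precisely, with a median SE of 0.275, and the part of depth in this was not tested.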
